A study of Bos taurus with 29 samples.

Results

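AVP (ENSBTAG00000008027) and OXT (ENSBTAG00000008026) encode the precursors of arginine vasopressin and oxytocin. The pair was chosen by identifier, for what the genes encode, and makes up 2 of the 24596 genes in the deposited table. Earlier results of these data were known at that point, and the study had called both genes lower on its high diet in the tissue described here. Both transcripts were measured by RNA-Seq in hypothalamus from which the arcuate nucleus (ARC) had first been dissected, in 29 heifer calves at 21 weeks of age. In the ARC, the study called AVP higher on the high diet. All were Angus X Holstein-Friesian calves, and each library came from a separate animal.

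The 14 HI calves were on a high plane of nutrition with a target gain of 1.2 kg per day. For 8 weeks they were given 1.5 kg of milk replacer in 10 litres each day with concentrates ad libitum, and for the next 11 weeks concentrates ad libitum with hay. The 15 MOD calves were on a moderate plane with a target gain of 0.5 kg per day. Over the same 8 weeks they were given 0.5 kg of milk replacer in 4 litres and 1 kg of concentrates each day, followed by 11 weeks on 1 kg of concentrates with hay. The sequenced calves were healthy animals whose gain lay near the mean of their group, and they were penned by treatment after weaning, so that pen and diet cannot be told apart. Diets were allotted at random within blocks formed on age, body weight, sire and farm, and the block of each calf is not given in the sources used here.

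Vasopressin and oxytocin are made by the magnocellular neurons of the paraventricular and supraoptic nuclei, whose axons end in the posterior pituitary and release the peptides into the blood. Each peptide is cut from a larger precursor that also holds a neurophysin, its carrier protein in the secretory granule, and most magnocellular neurons make mainly one of the peptides. Vasopressin acts on the kidney to conserve water and, from smaller neurons, takes part in the control of ACTH release and of daily rhythms, while oxytocin drives milk ejection and uterine contraction. The genes are paralogs. In the reference gene table (ARS-UCD2.0, used for the order of genes since the files are on UMD3.1) they lie next to each other on chromosome 13 with 0 genes between them. Reads that could belong to either gene were not identified here, and which strand column of the STAR gene counts was used is not given in the sources used here.

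The values are CPM, the reads of a gene scaled to the TMM-normalised library size of the calf. The reads behind each value were recovered from the table, and the total was between 11820640 and 17206435 per calf, with a median of 13723597. Because CPM is not corrected for transcript length, levels of AVP and OXT are not ranked against each other, and their ratio is a ratio of reads that is compared between calves. Where a ratio of 1 or a share of 50% is used, it is a fixed mark in reads for counting calves, and does not stand for equal numbers of transcripts.

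AVP was at or near 0 in many calves and very abundant in a few. In HI calves, AVP had a lowest value of 0 CPM, a median of 0.687 CPM and a highest value of 400 CPM. In MOD calves, its lowest value was 0.134 CPM, its median 3.45 CPM and its highest 3472 CPM. The diets overlapped between 0.134 and 400 CPM, with 2 of the 15 MOD calves above that stretch and 2 of the 14 HI calves below it. Of the 29 calves, 5 had more than 100 CPM of AVP, 3 had between 10 and 100 CPM, 8 had between 1 and 10 CPM and 13 had less than 1 CPM.

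The 5 calves with over 100 CPM of AVP were MOD calf 2346 with 43167 reads (3472 CPM), MOD calf 1392 with 11388 reads (866 CPM), HI calf 986 with 5224 reads (400 CPM), MOD calf 2532 with 5280 reads (336 CPM) and MOD calf 2551 with 3462 reads (249 CPM). At the other end, HI calf 1360 had 0 AVP reads. A fixed limit of 3 reads allows a level of up to 0.236 CPM there, and the exact 95% Poisson interval up to 0.290 CPM. Fewer than 10 AVP reads were found in 12 of the 29 calves. Counting error is therefore small in the high calves and large in the low ones. In MOD calf 2346 the exact 95% Poisson interval of AVP was 3440 to 3505 CPM, and in HI calf 2528, with 1 read, it was 0.0019 to 0.424 CPM. These intervals and limits cover counting error only.

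OXT had the same shape. Its level in HI calves had a lowest value of 0.206 CPM, a median of 2.80 CPM and a highest value of 778 CPM. In MOD calves it ranged from 0 to 1070 CPM around a median of 3.1 CPM, so that the medians of the diets lay 0.30 CPM apart. The highest OXT levels were in MOD calf 2346 with 13299 reads (1070 CPM), MOD calf 1392 with 13362 reads (1016 CPM), HI calf 986 with 10159 reads (778 CPM) and MOD calf 2551 with 1868 reads (134 CPM). As for AVP, 2 MOD calves were above the highest HI calf. MOD calves 1395 and 1057, at 0 and 0.071 CPM, were below the lowest HI calf. The diets overlapped between 0.206 and 778 CPM. The lowest was MOD calf 1395 with 0 OXT reads, which allows up to 0.201 CPM (3 reads), and 9 calves had fewer than 10 OXT reads.

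**Figure D1:**
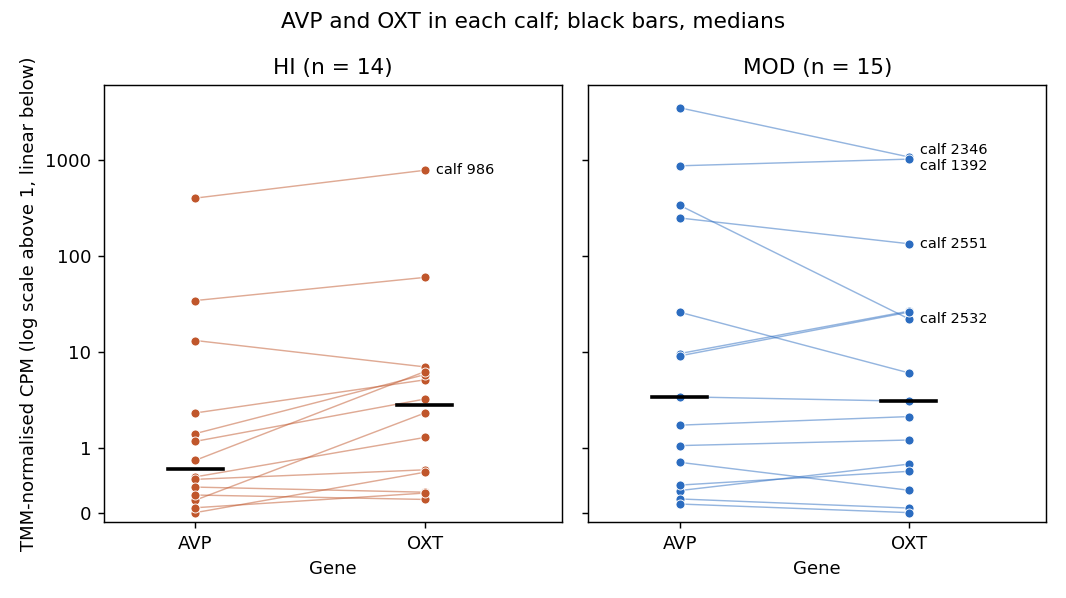
AVP and OXT in each of the 14 HI (left) and 15 MOD (right) calves, in TMM-normalised CPM on a vertical axis that is logarithmic above 1 and linear below. Each point is a calf, lines join the genes of 1 calf, black bars are medians, and the named calves include HI calf 986 at 400 and 778 CPM and MOD calf 2346 at 3472 and 1070 CPM, far above the medians of 0.687 and 3.45 CPM for AVP and of 2.80 and 3.1 CPM for OXT.

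A few animals therefore set the mean of each diet. Mean AVP was 32.5 ± 106 CPM (SD) over the 14 HI animals, compared with 332 ± 900 CPM (SD) over the 15 MOD animals. Mean OXT was 62.2 ± 207 CPM (SD) on HI, compared with 154 ± 363 CPM (SD) on MOD. In every case the SD was more than the mean. The 3 highest of the 29 calves held 87.2% of all AVP expression and 90.0% of all OXT expression. These were calves 2346, 1392 and 986 for both genes. The reads of AVP and OXT summed to 0.471% of all reads in MOD calf 2346, 0.203% in MOD calf 1392 and 0.123% in HI calf 986. In CPM, the pair summed to 4542, 1883 and 1178 in these calves, against a median of 3.49 over HI and 6.54 over MOD calves. In bulk tissue, fewer cells of a type and less RNA per cell cannot be told apart, so these levels do not say which of them differed between calves.

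No other transcript tested varied as much between calves on the same diet. On the log2(CPM + 1) scale, where the added 1 compresses differences at low levels, the SD within diets was 3.28 for AVP and 3.03 for OXT. They ranked 1 and 2 of the 13785 genes that exceeded 1 CPM in 14 or more calves, for which the median SD was 0.43. AVP passed that filter with 16 calves over 1 CPM and OXT with 19. The spread was wide in both diets, with an SD over calves of 2.46 in HI and 3.88 in MOD for AVP, and of 2.56 in HI and 3.40 in MOD for OXT.

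**Figure D2:**
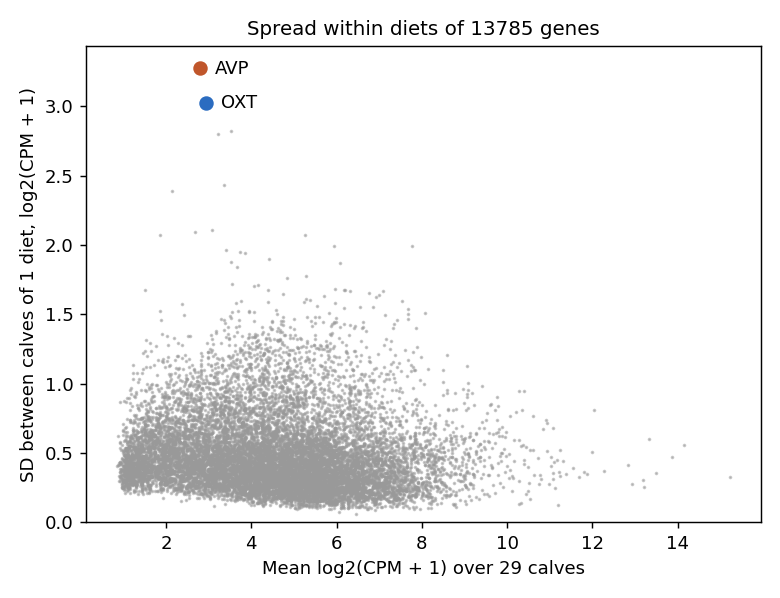
Spread between calves on the same diet for the 13785 genes that passed the filter. The horizontal axis is the mean log2(CPM + 1) over 29 calves, the vertical axis the SD within diets of log2(CPM + 1), each grey point is a gene, and AVP (3.28) and OXT (3.03) have the highest SDs, against a median of 0.43.

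AVP and OXT rose together from calf to calf. Over the 29 calves, Pearson's r of log2(CPM + 1) was 0.937 and Spearman's rho 0.909 (two-sided permutation, p = 1e-05 for both, the smallest that 100000 permutations can give, and adjusted p = 4.67e-05 over 14 correlation tests). The relation did not rest on the highest animals. Without MOD calves 2346 and 1392, the farthest from the AVP median, r was 0.894. The same 3 calves led for both genes, 4 calves were among the 5 highest for both, and 9 were among the 10 highest for both.

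The relation held within each diet. In HI calves r was 0.957 and rho 0.881 (two-sided permutation, p = 2e-05 and 8e-05, adjusted p = 5.6e-05 and 0.000187). Without HI calves 986 and 1531, the farthest from the HI median of AVP, r in HI fell to 0.714. In MOD calves r was 0.941 and rho 0.946 (two-sided permutation, p = 2e-05 and 1e-05, adjusted p = 5.6e-05 and 4.67e-05), and r was 0.877 without calves 2346 and 1392. Among calves with at least 10 reads of each gene, r was 0.953 and rho 0.75 in 7 HI calves (exact permutation, unadjusted p = 0.00337 and 0.0663). In 10 such MOD calves r was 0.905 and rho 0.867 (permutation, unadjusted p = 0.00031 and 0.00229). The slope of AVP on OXT was 0.92 in HI and 1.07 in MOD calves, and the difference between these slopes was not tested.

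The prefix at the start of each calf's file name, which takes the values 6 to 10 and whose meaning is not given in the sources used here, was treated as a possible batch. Each of the prefixes 6, 7, 8 and 9 had 6 calves, and r was 0.963, 0.831, 0.994 and 0.940 within them (exact permutation, two-sided, p = 0.0125, 0.0111, 0.00139 and 0.00417, with adjusted p = 0.0159, 0.0156, 0.00278 and 0.00648). Prefix 10 had 5 calves, under the minimum of 6 used here for a correlation, and its calves came in the same order for both genes.

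**Figure D3:**
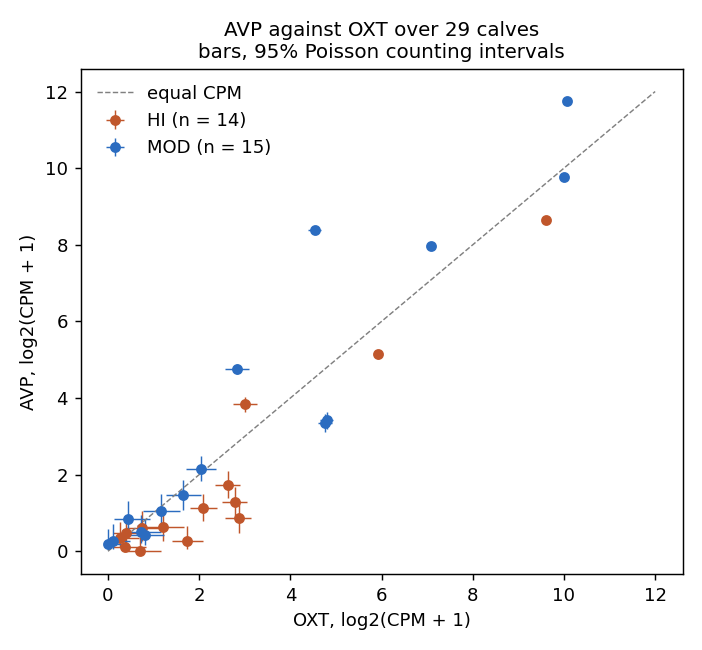
AVP against OXT in the 29 calves, both in log2(CPM + 1), with HI in orange and MOD in blue. Bars are 95% Poisson counting intervals and the dashed line marks equal CPM, and the points rise along it over the whole range (r = 0.937) while most HI points lie below the line, which is a mark in reads and not in transcript numbers.

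The balance of the genes was less uniform than their joint rise. Among the 17 calves with at least 10 reads of each gene, the AVP to OXT ratio in reads ranged 117-fold, from 0.130 in HI calf 553 to 15.2 in MOD calf 2532. In the 7 such HI calves the lowest ratio was 0.130, the median 0.453 and the highest 1.88, and 1 of the 7 was above a ratio of 1. In the 10 such MOD calves the lowest ratio was 0.351, the median 0.994 and the highest 15.2, and 5 of the 10 were above 1. The ranges of the diets overlapped between 0.351 and 1.88.

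These differences in balance between calves were well beyond counting error in the deeper calves. AVP made up 93.8% of the reads of the pair in MOD calf 2532 (exact 95% binomial interval 93.2 to 94.4%) and 76.4% in MOD calf 2346 (76.1 to 76.8%). In MOD calf 1392, which had nearly the same OXT level as calf 2346, the share was 46.0% (45.4 to 46.6%). HI calf 986 had a share of 34.0% (33.2 to 34.7%). The interval lay wholly above 50% in 1 HI and 4 MOD calves and wholly below 50% in 8 HI and 3 MOD calves. In the other calves the interval included 50%, and most of these had fewer than 10 reads of a gene.

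**Figure D4:**
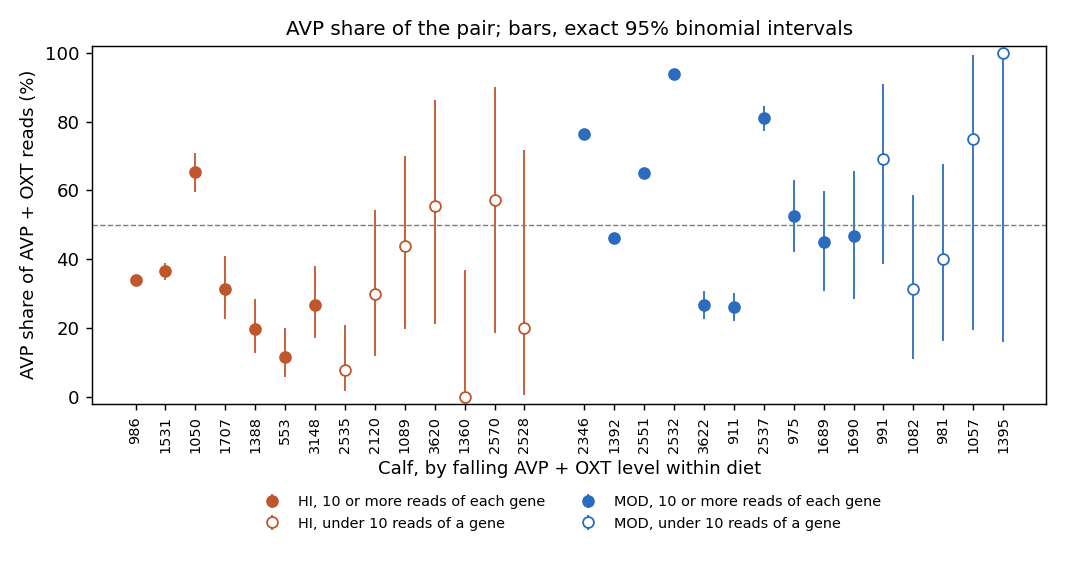
AVP share of the AVP and OXT reads (%) in each calf, ordered within diet by falling AVP plus OXT level. Points are shares, bars exact 95% binomial intervals and open points calves with under 10 reads of either gene, and the shares run from 93.8% in MOD calf 2532 down to 11.5% in HI calf 553 among the filled points.

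The ratio was lower in HI than in MOD calves. The mean of log2((AVP + 1)/(OXT + 1)) in CPM was -0.66 ± 0.74 (SD, n = 14) in HI and 0.36 ± 1.33 (SD, n = 15) in MOD calves. The difference was -1.02 (SE 0.40), or 2.03-fold lower in HI (two-sided permutation with 100000 resamples, p = 0.0134). Adjusted over the 4 diet comparisons made on the pair by permutation (the mean of each gene, their sum and their ratio), p was 0.0536, which is not past 0.05. On this scale the ratio was below the MOD median in 13 of 14 HI calves, and 4 of 15 MOD calves were above the highest HI calf. The added 1 draws calves with few reads towards 0, which affects these counts. HI calves 3620 and 2570, with 5 AVP and 4 OXT reads and with 4 and 3, were among those counted below the MOD median. At least 10 reads of each gene were found in 7 of the 14 HI and 10 of the 15 MOD calves.

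The difference in ratio kept its sign with each calf left out in turn, with values of -1.14 to -0.77 and unadjusted permutation p of 0.00464 to 0.0269. It was also negative within all 5 prefixes, from -3.27 in prefix 9 to -0.02 in prefix 10, where it was close to 0, and it was -1.18 with the prefix as a factor (permutation, p = 0.00476). A prefix held only 2 to 4 calves of each diet. The MOD mean was above 0 only in prefix 9, at 2.50, where the MOD calves were 2346, 2532 and 2537. In prefixes 6, 7, 8 and 10 the MOD mean was -0.27, -0.10, -0.09 and -0.25. Over the calves with at least 10 reads of each gene the difference in ratio was -1.41 (exact permutation, p = 0.0492, 7 HI and 10 MOD calves).

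For the genes one by one, AVP and OXT were lower in HI calves on average, and neither difference was larger than the spread between calves. The log2 fold change of HI against MOD by limma was -1.96 for AVP (SE 1.16, p = 0.0997, adjusted p = 0.999) and -0.94 for OXT (SE 1.07, p = 0.383, adjusted p = 0.999). No gene passed the threshold of an adjusted p under 0.10 with a fold change over 1.5 in that fit (0 of 13785, or 0%), while 179 genes had an unadjusted p under 0.05. The AVP fold change ranked 1 by size among the 13785 genes, whereas by p-value it ranked 452. OXT ranked 7 by size and 3937 by p-value. Diet accounted for 8.78% of the variance of AVP and 2.55% of that of OXT on the log2(CPM + 1) scale.

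The width of the intervals shows what 14 and 15 animals can resolve with this spread. The 95% interval of the AVP log2 fold change ran from -4.32 to 0.40. In CPM + 1, the scale of the fit, this covers a HI value from 0.050 to 1.32 times that of MOD. For OXT the interval ran from -3.12 to 1.23, or from 0.115 to 2.35 times the MOD value in CPM + 1. These are not ratios of CPM, since the added 1 compresses differences at low levels. Both intervals include no difference, and both include a difference of several fold.

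Each summary of level also gave a different size. The MOD mean of AVP was 10.2 times the HI mean, and its median 5.02 times the HI median. The MOD mean of OXT was 2.47 times the HI mean, and its median 1.11 times the HI median. The AVP level was below the MOD median in 11 of 14 HI calves, and the OXT level in 7 of 14. The difference of means, HI minus MOD, was -299 CPM (SE 234) for AVP (two-sided permutation, p = 0.212, adjusted p = 0.303 over the 4 comparisons) and -91.8 CPM (SE 109) for OXT (p = 0.33 by the same permutation test, adjusted p = 0.33). The difference of medians was -2.76 CPM for AVP (permutation, p = 0.154) and -0.30 CPM for OXT (permutation, p = 0.989).

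Single calves moved these differences. Without MOD calf 2346 the difference of means was -74.9 CPM for AVP and -26.3 CPM for OXT, and without MOD calf 1392 it was -30.1 CPM for OXT. Without HI calf 986 the OXT difference was -147 CPM. Leaving out the highest calf of each diet, HI 986 and MOD 2346, changed the ratio of the MOD to the HI mean from 10.2 to 25.2 for AVP and from 2.47 to 12.3 for OXT. On the log2(CPM + 1) scale, where a high calf weighs less, leaving out HI calf 986 gave -2.49 for AVP and -1.49 for OXT, while leaving out MOD calf 2346 gave -1.39 and -0.47.

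The prefixes also differed in direction. The difference in log2(AVP + OXT + 1), which was -1.58 (SE 1.25) over all calves, was negative in 2 of the 5 prefixes, at -7.30 in prefix 9 and -5.64 in prefix 10. In prefixes 6, 7 and 8 it was 4.05, 1.61 and 1.06, that is, higher in HI. With the prefix as a factor in limma, the log2 fold change was -1.80 for AVP and -0.62 for OXT.

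Whether AVP or OXT was called different depended on how the spread of a gene was estimated. In edgeR's exact test on the recovered reads, the log2 fold change was -3.35 for AVP and -1.31 for OXT with any of 3 dispersion estimates. With tagwise dispersions, which follow the spread of each gene, the adjusted p was 1 for both genes, and 0 of 13785 genes passed (207 with an unadjusted p under 0.05). With a dispersion that follows the trend over expression level and ignores the gene's own spread, both genes passed, with an adjusted p of 1.26e-53 for AVP and 2.65e-08 for OXT, among 47 genes called (0.341% of 13785). With 1 common dispersion both passed again, among 69 genes called (0.501%).

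The dispersion in question is the squared biological coefficient of variation. For AVP the tagwise dispersion was 4.76, against 0.123 on the trend, a ratio of 38.6, and for OXT 4.42 against 0.123, a ratio of 35.8. Expressed as a biological coefficient of variation, AVP varied by 218% between calves on its own estimate and by 35.1% on the trend. OXT varied by 210% on its own estimate. Under the trended dispersion the OXT call was lost without MOD calf 1392 (log2 fold change -0.57, adjusted p = 0.647) or without MOD calf 2346 (-0.51, adjusted p = 1). The AVP call held in all 29 exclusions, with log2 fold changes from -6.26 to -1.72. Under tagwise dispersions AVP passed in 1 of 29 exclusions, without HI calf 986 (-6.28, adjusted p = 0.0967).

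DESeq2 called AVP and not OXT. Its log2 fold change was -4.54 for AVP (adjusted p = 0.0812) and -1.15 for OXT (adjusted p = 1.0), and 2 genes were called (0.0145% of 13785). By default, DESeq2 replaces extreme counts where a group has enough samples. It replaced the 43167 AVP reads of MOD calf 2346 by 69 and the 5224 AVP reads of HI calf 986 by 73, so that the fit did not use the measured values of these calves. For OXT it replaced 10159 reads by 83 in HI calf 986, 13362 by 83 in MOD calf 1392 and 13299 by 78 in MOD calf 2346. With no count replaced, the AVP log2 fold change was -3.36 (adjusted p = 1.0) and that of OXT was -1.32 (adjusted p = 1.0), and neither was called.

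The DESeq2 call of AVP was kept in 10 of the 29 exclusions of 1 calf, which were those of HI calves 986, 1050 and 1531 and of MOD calves 975, 991, 1057, 1395, 1689, 1690 and 3622. In the other 19 it was lost, with an adjusted p between 0.112 and 0.998. The log2 fold change was negative in all 29, from -5.71 to -3.43. For OXT, DESeq2 made no call in any exclusion, but its log2 fold change moved from -2.39 without HI calf 1531 or HI calf 986 to -0.03 without MOD calf 2551.

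**Figure D5:**
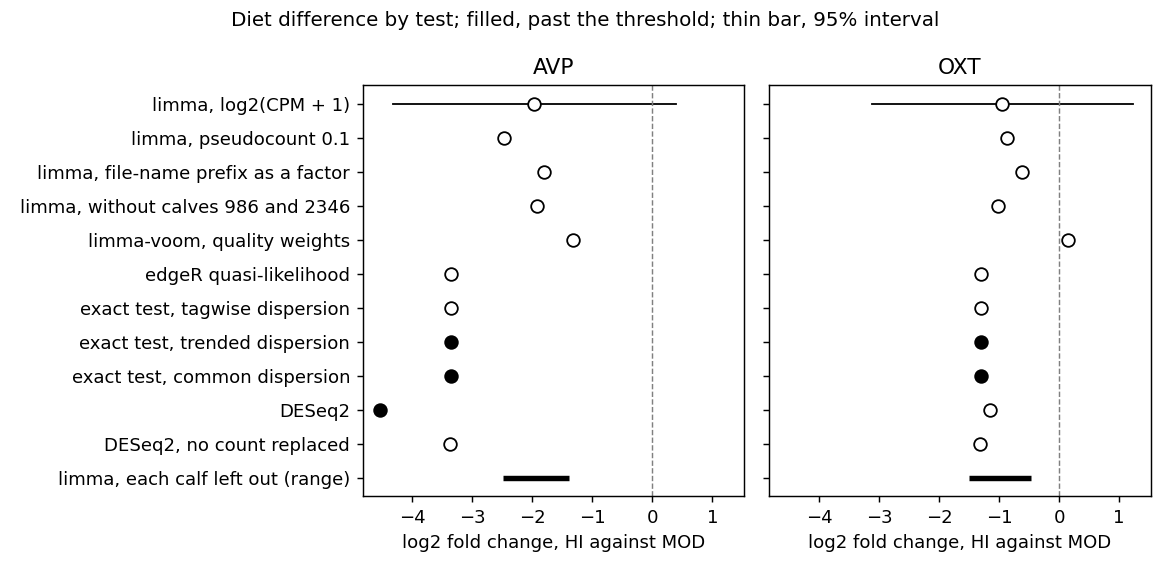
Log2 fold change of HI against MOD for AVP (left) and OXT (right) under 11 ways of testing, with filled points past the threshold and open points not. The thin bar is the 95% interval of limma and the thick bar the range over 29 fits that leave out 1 calf each, and AVP is filled for the exact test with trended or common dispersion and for DESeq2, whereas OXT is filled for those exact tests and not for DESeq2.

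Other transcripts that followed the pair over the 29 calves were sought by Spearman's rho. Of the 13784 other genes tested, OXT had the highest rho with AVP, and AVP the highest with OXT (0.909 for both). The next for both was ENSBTAG00000013923, with rho of 0.785 to AVP and 0.815 to OXT. PENK, which encodes proenkephalin, the precursor of the enkephalin opioids, followed with 0.758 to AVP and 0.767 to OXT. DUSP9, a MAP kinase phosphatase, had 0.734 to AVP, and NNAT, neuronatin, 0.726 to AVP. The third for OXT was ENSBTAG00000015217, with 0.773, and the fifth had no symbol in the sources used here. The median rho over all genes was -0.02 for both, the 99th percentile 0.488 for AVP and 0.499 for OXT, and 114 genes for AVP and 138 for OXT were above 0.5. Symbols were available for 114 identifiers, all from the study's lists of diet differences in these or in the ARC samples, so most genes close to the pair have no symbol here, and apart from the identifiers already given they are not named.

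The high calves for AVP and OXT were not simply the high calves for every peptide. PENK ranked 6, 3, 4, 9 and 2 of the 29 calves in MOD 2346, MOD 1392, HI 986, MOD 2551 and MOD 2532, the 5 calves with over 100 CPM of AVP. PDYN, which encodes prodynorphin and is made by vasopressin neurons, ranked 4, 13, 15, 24 and 14 in the same calves. GAL, encoding galanin, ranked 13, 6, 18, 1 and 24. CARTPT and CALCB lay closer to the pair in most of these calves, but not in MOD calf 2346. CARTPT ranked 14, 2, 4, 1 and 5, and CALCB 20, 1, 4, 10 and 2. Of the other peptide genes described below, HCRT ranked 10, 4, 8, 16 and 24, and PMCH 13, 9, 7, 15 and 20. TAC1 ranked 22, 14, 8, 10 and 2, and NPY 15, 20, 13, 1 and 3. POMC ranked 29, 12, 13, 3 and 23.

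Among the magnocellular co-peptides, 3 of 8 listed genes had an identifier (PDYN, GAL and CARTPT), and all 3 were tested, with 0 called up and 0 called down by limma. PDYN ranged from 0.603 to 119 CPM over the 29 calves with its highest value in HI calf 3620, which had 5 AVP reads. Its rho was 0.23 to AVP and 0.02 to OXT over all calves, and to AVP it was 0.34 within HI and -0.05 within MOD. GAL ranged from 0.134 to 128 CPM, with rho of 0.29 to AVP and 0.49 to OXT. CARTPT, the precursor of the CART peptides, ranged from 0.134 to 17.7 CPM, with rho of 0.55 to AVP and 0.61 to OXT. The median log2 fold change of the 3 was -0.46, against 0.02 over all genes tested. The study picked these genes in part from these libraries. Neither the direction of their diet differences nor their rho to the pair is therefore independent evidence.

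Among the peptides of other hypothalamic neurons, 8 of 15 listed genes had an identifier, 6 passed the filter and 0 were called in either direction by limma, with a median log2 fold change of -0.17. PENK ranged from 0.603 to 155 CPM and was the closest of them to the pair. CALCB, encoding beta-CGRP, did not pass the filter, and had rho of 0.62 to AVP and 0.65 to OXT. HCRT and PMCH, encoding the orexin and melanin-concentrating hormone precursors of lateral hypothalamic neurons, had rho of 0.48 and 0.49 to AVP and of 0.50 and 0.48 to OXT. TAC1, the substance P precursor, had 0.47 to AVP and 0.43 to OXT, and to AVP it was 0.66 within HI and 0.30 within MOD. NPY had 0.39 to AVP and 0.49 to OXT. The study called PENK, HCRT, CALCB and TAC1 lower in HI in these libraries, as it did AVP and OXT. Their choice was therefore not independent of the pair, which limits what their rho can show. The part of these neurons in the differences between calves was not tested.

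The feeding peptides of the ARC differed in level. AGRP, encoding agouti-related peptide, had a median of 0 CPM and a highest value of 0.153 CPM, too few reads for a relation to be read from them. POMC, encoding proopiomelanocortin, was present in all calves at 11.2 to 94.7 CPM. The rho of POMC was 0.10 to AVP and 0.01 to OXT.

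Markers of tissue next to the hypothalamus were read beside the diet difference. Of 7 pituitary genes, 3 had an identifier (PRL, CGA and POMC) and passed the filter. Their summed level ranged from 19.1 to 124 CPM in HI and from 15.7 to 103 CPM in MOD calves, and 0 were called by limma. POMC, also given above as a feeding peptide, had the highest median over all calves, at 17.7 CPM. The medians of PRL and CGA were 8.02 and 1.56 CPM, so the sum is not a measure of pituitary tissue alone. PRL, encoding prolactin, had a log2 fold change of HI against MOD of 0.90 (SE 0.50, adjusted p = 0.999 by limma), its median being 14.8 CPM on HI against 7.29 CPM on MOD. CGA, the shared alpha subunit of the glycoprotein hormones, had 0.21 and POMC 0.0043. The relation of PRL and CGA to the pair had opposite signs in the diets. The rho of PRL to AVP was -0.14 over all calves, -0.38 within HI and 0.25 within MOD, and to OXT -0.14, -0.56 and 0.26. The rho of CGA to AVP was -0.15 over all calves, -0.41 within HI and 0.24 within MOD, and to OXT -0.13, -0.58 and 0.29. The difference in rho between the diets was not tested. Of 6 genes of blood, vessel and meninges, 5 had an identifier and 3 passed the filter, with a summed level of 68.0 to 283 CPM in HI and 64.5 to 285 CPM in MOD calves and 0 called. COL15A1, a collagen of basement membranes, had a log2 fold change of 1.10 (SE 0.32, unadjusted p = 0.00186, adjusted p = 0.999 by limma), opposite in sign to that of the pair, and a rho of -0.37 to AVP and -0.25 to OXT. HBD, a haemoglobin subunit that did not pass the filter, had a log2 fold change of 0.44 (SE 0.22, unadjusted p = 0.0491, adjusted p = 0.999) in the limma fit over all genes with a read. CLDN5 had -0.01, VCAM1 0.27 and ALDH1A2 0.11. The study called PRL and COL15A1 higher in HI in these libraries. Neither the direction of their diet differences nor their rho to the pair is therefore independent evidence. The part of pituitary, blood or vessel tissue in the level of the pair was not tested. None of the 6 glial genes and none of the 5 receptor and peptidase genes listed for vasopressin and oxytocin (0 of each) had an identifier with a symbol, so the receptors are not described here.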

How the data were processed

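RNA-Seq libraries (Illumina TruSeq Stranded mRNA) of the remaining hypothalamus of 14 HI and 15 MOD calves were analysed, with diets taken from the sample labels. According to the submitters' processing notes, reads were checked with FastQC 0.11.8, trimmed with cutadapt 2.6, aligned to UMD3.1 with STAR 2.6.1 and normalised with edgeR 3.5 in R 3.4. The authors deposited a normalised signal for every gene, in CPM, that is, read counts scaled to a library size adjusted by TMM. Dividing by the value of 1 read gave whole reads for 100% of values (tolerance 0.001 reads). Normalisation factors were 0.795 to 1.12.

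Genes that exceeded 1 CPM in 14 or more calves were tested with limma 3.58.1 (with a trend, R 4.3.3) on log2(CPM + 1), and called at a Benjamini-Hochberg adjusted p under 0.10 and a fold over 1.5. The count tests on recovered reads (edgeR 4.0.16, DESeq2 1.42.0) were alternatives, and the edgeR quasi-likelihood test called 0 of 13785 genes (217 with an unadjusted p under 0.05). Permutation tests of single values were two-sided with 100000 resamples. The limma, edgeR, DESeq2 and limma-voom tests were checked on simulated data. File-name prefixes came from the study's supplementary sample list.

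Genes named were AVP, OXT, the 5 with the highest Spearman rho to each, and those of the listed peptides. The members and lists were chosen with earlier results of these data known. A planned search for promoter motifs was not run, since no sequence was to hand. The alternatives tried were other count tests, RLE normalisation, a pseudocount of 0.1, other filters, voom weights, the prefix as a factor and each calf left out. The ARC samples were not analysed here.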

Additional observations from a re-analysis of the deposited data

How the results depend on the processing

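The main limits are the low depth of AVP and OXT in most calves and the weight of a few high calves. The cause of each change given here was not tested. The AVP log2 fold change passed the threshold at -3.35 with trended and -3.35 with common dispersion and at -4.54 in DESeq2. That of OXT passed at -1.31 with trended and -1.31 with common dispersion, and changed sign to 0.14 (adjusted p = 0.973) in limma-voom with sample quality weights. The number of genes called rose from 0 to 47, 69 and 2 in these 3 count tests. Leaving out each calf in turn gave -2.49 to -1.39 for AVP and -1.49 to -0.47 for OXT by limma with 0 genes called in all 29 fits, -328 to -74.9 CPM and -147 to -26.3 CPM for their differences of means, -2.14 to -1.02 for their sum and -1.14 to -0.77 for their ratio. The correlations ranged from 0.920 to 0.959 over all calves, 0.880 to 0.972 in HI and 0.916 to 0.969 in MOD calves. The ratio was -1.60 with a pseudocount of 0.1 (permutation, p = 0.00298) and -0.90 without calves 986 and 2346 (permutation, p = 0.0348). The other settings named in the methods changed no direction and no call of AVP or OXT. DESeq2 with no count replaced, calves left out under the count tests, and the prefix as a factor for the ratio and the sum were chosen after seeing the data. No paired analysis was possible because the blocks within which diets were allotted are not given in the sources used here and the calf numbers are not shared between the diets.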

Other observations

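Genes of other roles were read against the pair as values only. Among them, BAIAP3, SCGN and NKX2-1 were called lower in HI by the study in these libraries, as were AVP and OXT. Their rho to the pair is therefore not independent evidence. Of 14 genes of dense-core granules and peptide processing, 3 had an identifier and 2 passed the filter, with 0 called by limma. BAIAP3, which acts in dense-core vesicle traffic, ranged from 2.88 to 383 CPM with its highest value in MOD calf 2532, and had rho of 0.63 to AVP and 0.66 to OXT over the 29 calves. SCGN, the calcium-binding protein secretagogin, had rho of 0.71 to AVP and 0.64 to OXT but did not pass the filter. CHGA, chromogranin A, a general granule protein, had rho of -0.04 to AVP and -0.14 to OXT over all calves at levels between 59.7 and 946 CPM. Within HI these were -0.30 and -0.52, and within MOD 0.03 and 0.16, a difference that was not tested.

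Of 9 transcription factors of magnocellular and hypothalamic neurons, 5 had an identifier and 2 passed the filter, with 0 called. NKX2-1, a homeobox factor of the ventral forebrain, had rho of 0.57 to AVP and 0.53 to OXT, but did not pass the filter. VAX1 had rho of 0.54 to AVP and 0.57 to OXT, and LHX6 0.33 and 0.29, and neither passed the filter. NKX2-1, VAX1 and LHX6 all had their highest value in MOD calf 2532, the calf with the highest AVP to OXT ratio. ZIC1 and FOXB1, which passed the filter, had rho of -0.11 and -0.05 to AVP. Of 6 genes of neuronal activity and osmotic response, 2 had an identifier and passed, with 0 called. EGR1, an immediate-early factor, had rho of -0.08 to AVP and -0.10 to OXT, and FKBP5, a glucocorticoid-responsive gene, -0.07 to both. All 8 genes listed under synaptic and cortical neurons had an identifier, 7 passed and 0 were called. Whether each of them is made mainly by such neurons was not tested. Since every symbol came from the study's lists of diet differences, the 8 are not a neutral comparison set. The rho of the 8 was above 0 for 4 genes to AVP and for 5 genes to OXT, and ran from -0.33 (NEFH, a neurofilament subunit of large axons) to 0.16 (C1QL3, SCN7A and GRIK3) to AVP and from -0.36 (NEFH) to 0.32 (GRIK3, a kainate receptor subunit) to OXT.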
